A study of Mus musculus with 6 samples.

Results

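The cytosolic ribosomal protein genes were examined in islet RNA-seq of mice with and without the farnesoid X receptor (FXR), a bile acid receptor encoded by *Nr1h4*. The genes were taken by symbol: every gene named Rpl or Rps followed by a number, with an a or x where it has one, together with *Rplp0*, *Rplp1*, *Rplp2*, *Rpsa* and *Fau*. This gave 77 of the 19342 genes in the count table, 31 of the small subunit and 46 of the large subunit. All 77 passed the filter on low counts, which left 14619 genes to test. The rule used symbols and no measured value.

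Islets had been isolated by collagenase P digestion from C57Bl/6 mice aged 3 months, either FXR+/+ or FXR-/-, and 1 female and 2 male libraries were sequenced from each genotype. The sources used here name no tissue to which the knockout was restricted, and islets hold several cell types. Whether a library holds 1 mouse or a pool is not stated in the sources used here, and the p-values measure the spread between these libraries only. Library totals were 20629306 to 30139235 counts, which leaves counting error small for all but the lowest genes. *Nr1h4* counts were 274 to 386 in FXR+/+ islets against 138 to 145 in FXR-/- islets, and every FXR-/- library lay below every FXR+/+ library, with a log2 fold change of -1.07 ± 0.16 (SE) and an edgeR adjusted p of 0.217. The beta cell genes *Ins1* and *Ins2* took 17.5% to 23.9% of counts. A list of 22 acinar genes, which the exocrine pancreas expresses, took 5.18% to 15.1% of counts. In such bulk samples fewer cells of a type and less RNA per cell cannot be told apart.

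Each ribosome joins a small subunit, which reads the mRNA, to a large subunit, which makes the peptide bond, and each ribosomal protein is present in about 1 copy, apart from the P-stalk proteins. Beta cells, which make insulin in large amounts, translate heavily. The mRNAs of ribosomal proteins classically begin with a C followed by a run of pyrimidines (C or T), the 5' terminal oligopyrimidine or TOP tract, through which mTORC1 and LARP1 control their translation.

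Because the TOP tract is the sequence these genes are known to share, the bases around the annotated start of transcription were read from RefSeq promoters of GRCm38.p6, which held 67 starts for 57 of the 77 genes. Each sequence below runs from 20 bases before the start to 10 after it, on the strand of the gene, and the capitals mark the longest run of C and T. The first 4 are genes with low p-values in the comparison of genotypes, the next 3 are genes with unusually few counts, and the last 2 had a wide range over the libraries.

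Rplp2: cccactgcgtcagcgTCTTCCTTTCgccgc
Rpl38: ccggaagcggaagcctcgTTCTTTCCCCgt
Rpl7a: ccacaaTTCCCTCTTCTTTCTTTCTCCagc
Rpl35: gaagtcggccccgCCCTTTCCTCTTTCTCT
Rps27: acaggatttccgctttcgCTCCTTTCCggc
Rpl27: ccggaacgctctgTTCCTgtctgctgctcg
Rpl26: gagaTCTCgcggcaacttacagaaccggaa
Rps18: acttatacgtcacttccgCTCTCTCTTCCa
Rpsa: tggctgtgggttatttaaggacgtcaTTTC

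On GRCm38.p6 these windows lie at chr7:141447631-141447660 (*Rplp2*, plus strand), chr11:114668560-114668589 (*Rpl38*, plus strand), chr2:26910787-26910816 (*Rpl7a*, plus strand), chr2:39005122-39005151 (*Rpl35*, minus strand), chr3:90213639-90213668 (*Rps27*, minus strand), chr11:101442225-101442254 (*Rpl27*, plus strand), chr11:68901546-68901575 (*Rpl26*, plus strand), chr17:33955656-33955685 (*Rps18*, minus strand) and chr9:120127746-120127775 (*Rpsa*, plus strand). Of the 57 genes with a promoter, 27 (47.4%) held an unbroken run of at least 8 pyrimidines in this window, against 15.4% of 11503 other tested genes. The run could lie wholly before the annotated start, as in *Rpl4* and *Rpl31*, so this is not a count of TOP tracts. The run measured 21 bases in *Rpl7a* and 17 in *Rpl35*, and it was 5 in *Rpl27* and 4 in *Rpl26* and *Rpsa*. It was 3 in *Rpl41*, which is not printed and whose edgeR p-value was lower than those of *Rpl7a* and *Rpl35*. Over the whole promoter, from 250 bases before the start to 50 after it, the core of the ETS factors CCGGAAG, searched on both strands as were all motifs, was held by 40.4% of the ribosomal protein genes and 18.3% of the other genes. The core of YY1, AAGATGG, was held by 17.5% and 7.95%. The inverted repeat AGGTCANTGACCT, the preferred sequence of FXR with its partner RXR, was found in 0 of the 57 promoters and in 0 of the other 11503, and a single site AGGTCA, which is contained in the repeat, was in 8.77% and 14.9%. A match is a description of the letters and not a bound site. The repeat matched no promoter searched, so its absence cannot set the ribosomal protein genes apart from other genes. The presence of the pyrimidine run did not separate the genes in the comparison of genotypes: the median log2 fold change was 0.091 over the 27 genes with it and 0.088 over the 30 without it.

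Levels among the genes spanned 1210-fold, although each ribosome needs the proteins in like amounts. The level was taken as CPM (counts relative to the TMM-adjusted library total, on the usual CPM scale) divided by the length of the annotated mRNA in kb. The median gene had 284 CPM per kb, and 58 of the 77 genes lay within 2-fold of it. The highest was *Rpl41*, which encodes the smallest protein of the large subunit, at 1310, 1700 and 1210 CPM per kb in the FXR+/+ female 1, male 1 and male 2, and 1280, 1980 and 1890 in the FXR-/- libraries in the same order. It stood apart from the next genes in every library.

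The others of the 6 highest were *Rps21* at 842 ± 87.9 CPM per kb (SD, n = 6), *Rps14* at 797 ± 81.9, *Rplp1* at 795 ± 137, *Rps29* at 719 ± 130 and *Rps28* at 694 ± 112. These SDs include differences between libraries that the genes share. Within libraries, *Rplp1* was above *Rps29* in all 6, while the other adjacent pairs among these 5 changed order between libraries, so those neighbours did not differ beyond their spread. All but *Rplp1*, a protein of the P-stalk that recruits the GTPases of elongation, belong to the small subunit.

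**Figure D1:**
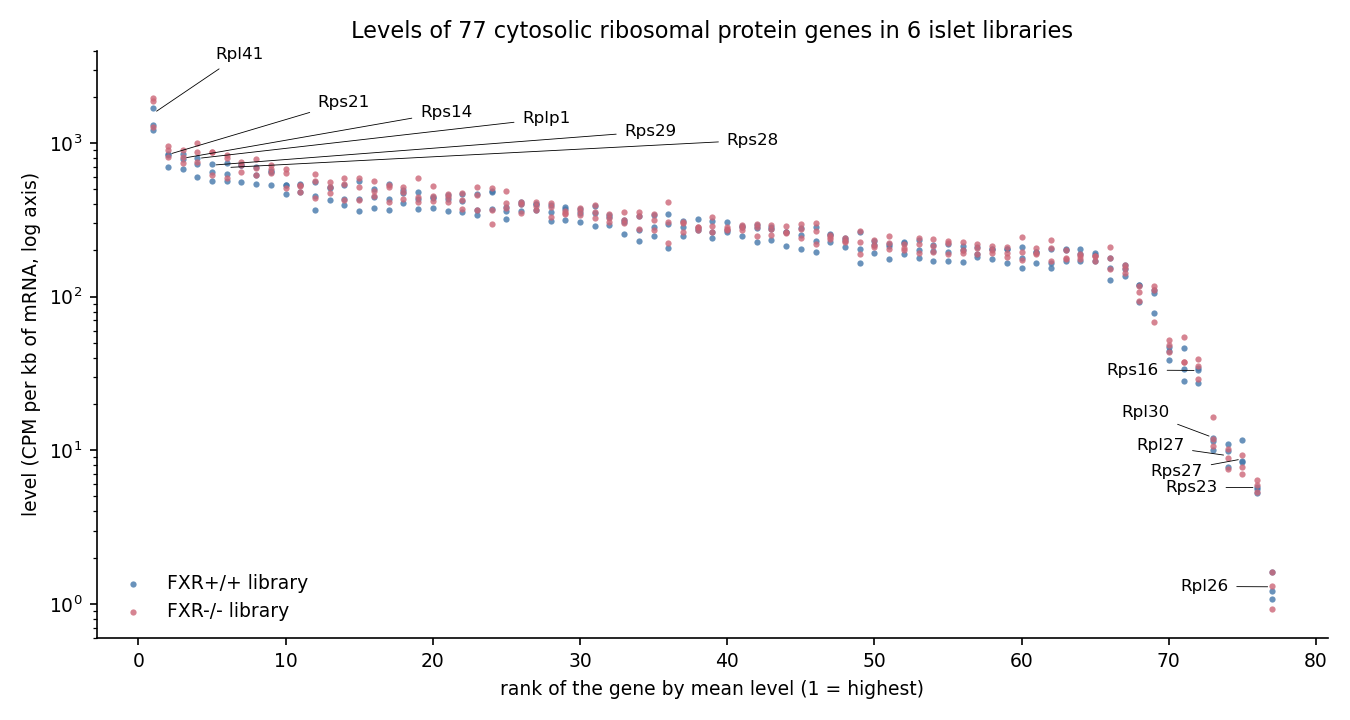
The level of each ribosomal protein gene in CPM per kb of mRNA (log axis) is plotted against its rank by the mean of 6 libraries, with 1 point per library, blue for FXR+/+ and red for FXR-/-. Levels fall slowly from *Rpl41* to about rank 65 and then steeply to *Rpl26*, and at each rank the libraries of both genotypes sit together.

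At the other end, 5 genes lay below a 10th of the median level: *Rpl26* at 1.29 ± 0.278 CPM per kb (SD, n = 6), *Rps23* at 5.71 ± 0.406, *Rps27* at 8.78 ± 1.59, *Rpl27* at 9.22 ± 1.37 and *Rpl30* at 12.1 ± 2.25. *Rps16* followed at 33.1 ± 4.26. *Rpl26* (chromosome 11, 68901566 to 68904534 of GRCm38), a large subunit protein near the exit of the peptide tunnel, was counted 20, 13 and 18 times in FXR+/+ and 12, 13 and 20 times in FXR-/- islets. *Rps23* (chromosome 13, 90923122 to 90924732), which sits in the decoding centre, had 126, 100 and 165 counts against 124, 106 and 142. *Rps27* (chromosome 3, 90212667 to 90213648) had 68, 81 and 93 against 60, 61 and 64. Each of the 5 was low in all 6 libraries, so the low value belongs to the gene in this table and not to a library.

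Most ribosomal protein genes have processed copies elsewhere in the genome, and reads can match more than 1 of them. For each gene the windows of 50 bases along its mRNA were compared with GENCODE vM21 transcripts of all other genes. The median share found elsewhere was 55.5%, and 76 of the 77 genes matched at least 1 annotated pseudogene, with a median of 8 and up to 119 for *Rpl7a*. *Rps27* shared 98.6% of its windows and *Rpl26* 71.3%, but *Rps23* and *Rpl30* shared 48.4% and 47.8%, near the median, while *Rps10* shared 92.4% and had 309 CPM per kb. Across the 77 genes the rank correlation between level and shared sequence was 0.0804, and that between level and the number of matching pseudogenes was -0.229, both given as descriptions because the genes share libraries. Levels of single genes are therefore uncertain, and how the counting treated reads with several matches is not given in the sources used here. The low level per kb of *Rps20*, at 45.8, comes with an annotated mRNA of 3706 bases, long for this family. Its mean CPM ranked 51 of 77.

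The deposited counts per exon gave another view of the same genes. Summed over a gene they came to 32.3% to 36.6% of the gene counts over all genes but to 4.7% to 5.83% over the ribosomal protein genes, and the median gene kept 1.28%. *Rpl29* kept 75.6% of its gene counts, *Rpl15* 47.1%, *Rpl41* 45%, *Rpl27* 42.8%, *Rps27* 40.7% and *Rps23* 31.8%. *Rpl26* had no exon in the table, which listed 76 of the 77. Hence 4 of the 5 genes with the lowest levels, *Rpl30* included, were among the 10 genes that kept over 10%, and 30 genes kept under 1%. The rank correlation between the exon share and the longest listed exon was 0.493 over 76 genes. The 6 lowest genes by exon counts per kb shared 0 with the 6 lowest by gene counts, so the order depended on which of the deposited tables was used. The cause was not tested.

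Turning to the effect of FXR loss, no ribosomal protein gene differed between the genotypes beyond the spread of the libraries. In the edgeR quasi-likelihood fit, which also held sex, 0 of the 77 had an adjusted p under 0.05 (Benjamini-Hochberg over all genes tested), as had 0 of all 14619 genes (0%). At an unadjusted p under 0.05 there were also 0 of 77, where all genes gave 1511, which is 10.3%. DESeq2 called 0 of the 77 and 168 genes in all. *Rplp1* was its sole ribosomal protein gene at an unadjusted p under 0.05, where all genes gave 9.1%. There was no gene among the 77 whose 3 FXR-/- libraries all lay above the 3 FXR+/+ libraries, or all below. Over all genes the shares were 8.02% and 7.37%.

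The data bound the size of a difference. Log2 fold changes of FXR-/- over FXR+/+ ran from -0.24 for *Rps27* to 0.29 for *Rplp1*, with a median of 0.091 against 0.0084 over all genes. The median standard error was 0.121. For 68 of the 77 genes the 95% interval lay within a 1.5-fold change either way, and for none did it reach 2-fold. 60 of the 77 log2 fold changes (77.9%) were above 0, as were 51.6% over all genes. Small and large subunits had medians of 0.091 and 0.088. The ratio of large to small subunit counts was 1.49, 1.51 and 1.53 in the FXR+/+ libraries and 1.54, 1.5 and 1.53 in the FXR-/- libraries.

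**Figure D2:**
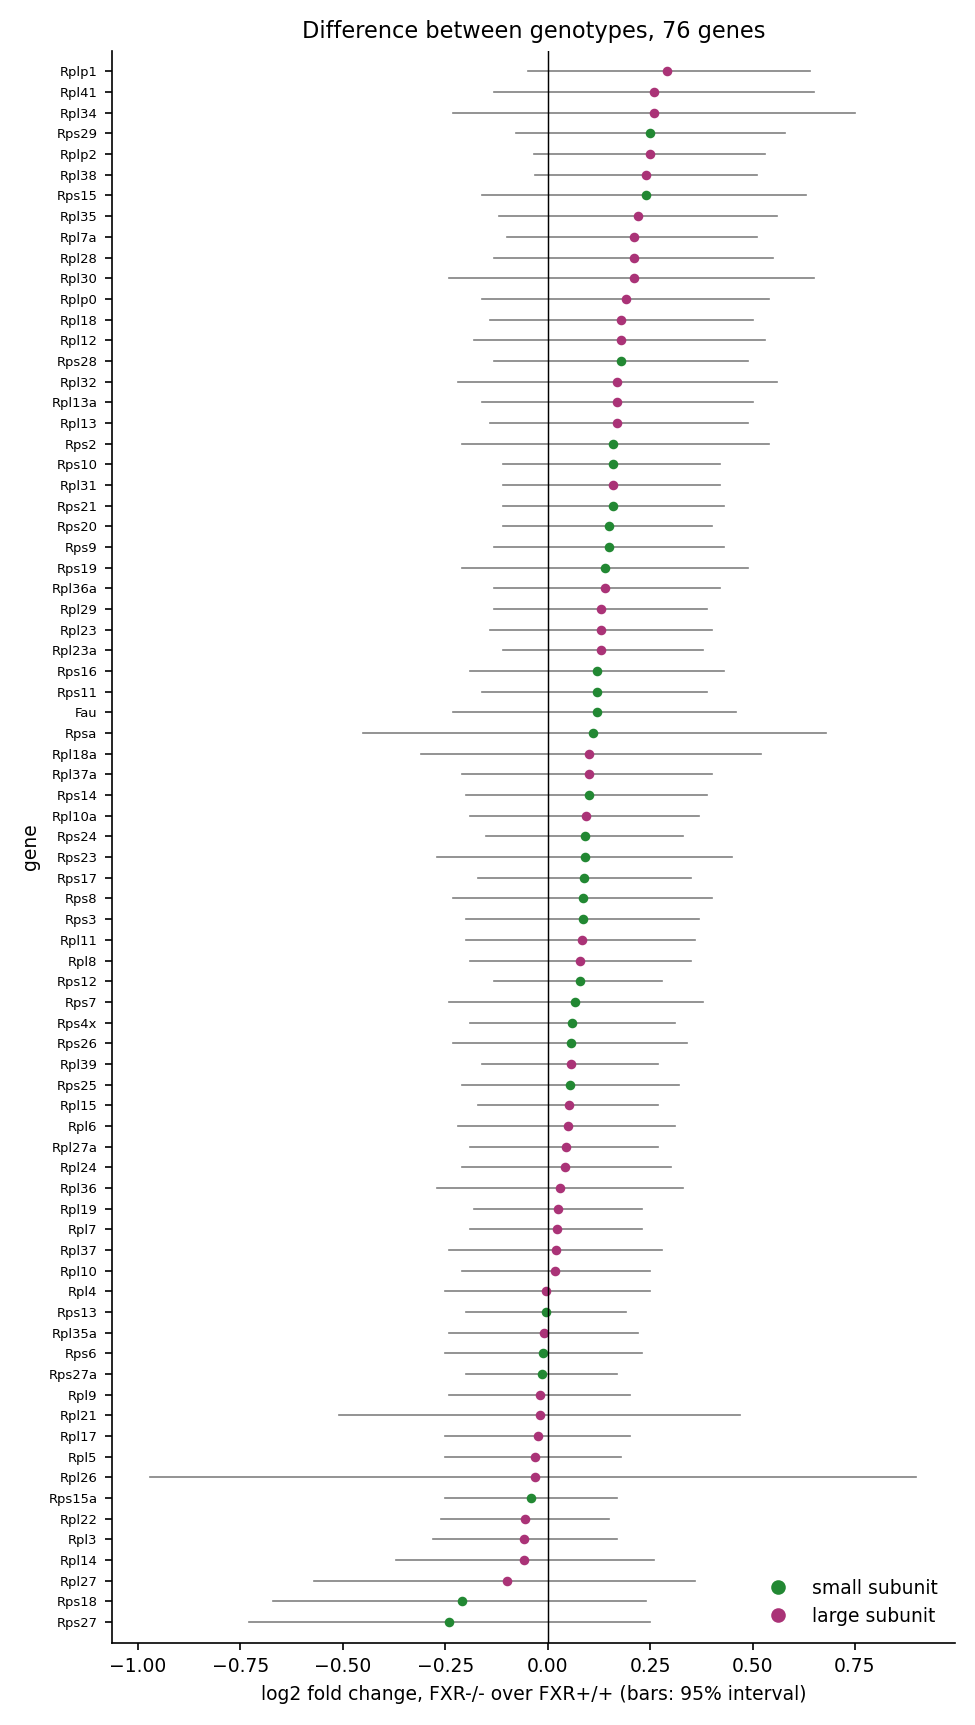
The log2 fold change of FXR-/- over FXR+/+ is shown for 76 of the 77 genes, sorted by value, with the 95% interval as a bar, green for the small and purple for the large subunit. Every interval shown holds 0, and that of *Rpl26* is the widest, from -0.97 to 0.90.

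The P-stalk, the flexible arm of the large subunit, held 2 of the 3 lowest edgeR p-values. All of these were above 0.05 unadjusted, where 10.3% of all genes lay below it. *Rplp1* (chromosome 9, 61913283 to 61914510) was at 368, 399 and 300 CPM in the FXR+/+ female 1, male 1 and male 2 and at 376, 503 and 436 CPM in the FXR-/- libraries in that order. The FXR-/- female lay below the FXR+/+ male 1, so the groups overlapped. Its log2 fold change was 0.29 ± 0.146 (SE), with an edgeR adjusted p of 0.499. *Rplp2* (chromosome 7, 141447651 to 141451359) was at 162, 153 and 136 CPM against 159, 206 and 172, a log2 fold change of 0.25 ± 0.121 with an adjusted p of 0.492. Here too the female libraries were close and the males apart. *Rplp0*, which anchors the stalk, was at 588, 722 and 534 CPM against 580, 804 and 734, a log2 fold change of 0.19 ± 0.149.

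*Rpl38*, a large subunit gene linked to the translation of Hox mRNAs, had the lowest unadjusted p of the 77, 0.0739 in edgeR. It was at 184, 186 and 162 CPM in FXR+/+ and 177, 234 and 220 CPM in FXR-/- islets, a log2 fold change of 0.24 with a 95% interval of -0.030 to 0.51. *Rps29* was at 254, 287 and 221 CPM against 240, 340 and 339, and *Rpl41* at 574, 743 and 530 against 557, 865 and 827. Both had the FXR-/- female within the range of the FXR+/+ libraries, as *Rpl38* had. The rest of the 10 lowest p-values belonged to *Rpl7a*, *Rpl35*, *Rpl28*, *Rps15* and *Rpl31*, with log2 fold changes of 0.21, 0.22, 0.21, 0.24 and 0.16 and edgeR adjusted p-values of 0.563 to 0.601. *Rps15*, at 226, 278 and 183 CPM against 221, 316 and 282, was the only one of the 77 within 20 Mb of *Nr1h4* on chromosome 10. The distance was 9.24 Mb from the first base of *Rps15* to the far end of *Nr1h4*, both genes included. *Rpl34* was at 16.1, 22.3 and 13.5 CPM against 18.1, 26.1 and 18.1, a log2 fold change of 0.26 ± 0.21.

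The other 17 log2 fold changes were below 0. Several belonged to abundant genes that varied little, such as *Rpl4*, which ranged from 563 to 637 CPM with a log2 fold change of -0.0034, and *Rps13*, from 134 to 151 CPM with -0.0053. The 3 largest were in genes with few counts or a wide range. *Rps27* was at 2.9, 4.01 and 2.94 CPM in FXR+/+ and 2.43, 3.21 and 2.69 CPM in FXR-/- islets, with an edgeR adjusted p of 0.665. *Rps18*, of the head of the small subunit, was at 268, 273 and 210 CPM against 167, 285 and 205, a log2 fold change of -0.21 ± 0.194. Its FXR-/- libraries included both the lowest and the highest of the 6. *Rpl27*, *Rpl14*, *Rpl3* and *Rpl22* had log2 fold changes of -0.10, -0.059, -0.057 and -0.055, with edgeR adjusted p-values of 0.851, 0.877, 0.829 and 0.822.

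Several members are known for roles outside the ribosome or are made in a particular way. *Rpl5* and *Rpl11*, which with 5S rRNA bind MDM2 and stabilise p53 when assembly fails, had log2 fold changes of -0.031 and 0.083, with 95% intervals of -0.25 to 0.18 and -0.20 to 0.36. *Rps6*, the protein phosphorylated by S6 kinase, was at 472, 476 and 420 CPM against 425, 466 and 466, with a log2 fold change of -0.012. *Fau* and *Rps27a*, both made as fusions with a ubiquitin-like protein or ubiquitin, had 0.12 and -0.015. The genes on the X chromosome, *Rpl10*, *Rpl36a*, *Rpl39* and *Rps4x*, had 0.017, 0.14, 0.056 and 0.060.

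The labels give both genotypes the same replicate names, and same-named libraries deviated together across genes. With the replicate name as a block, edgeR called 23 of all genes (0.157%) and 0 of the 77. At an unadjusted p under 0.05 the block gave 3 of the 77, *Rplp1*, *Rplp2* and *Rpl34*, where all genes gave 16.1%. Their adjusted p-values in this fit were 0.270, 0.299 and 0.26.

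Within the pairs the ratio depended on the pair. Between the female libraries the median ratio of FXR-/- to FXR+/+ was 0.949 over the 77 genes, and 7 of the 77 were higher in FXR-/-. Between the libraries named male 1 it was 1.06 with 67 higher, and between those named male 2 it was 1.23 with 75 higher. The medians over all tested genes were 1.00, 0.998 and 1.02. For 60 of the 77 genes the female ratio was below 1 and both male ratios were above it, whereas 6 were higher in all 3 pairs. The interaction of genotype and sex was above 0 on the log2 scale (males over females) for 75 of the 77, with a median of 0.28 against 0.0025 over all genes. By edgeR it was called for 0 of the 77 and for 0 of all genes at an adjusted p under 0.05. At an unadjusted p under 0.05 by edgeR there was 1 of the 77, *Rpl21* (0.00843, adjusted p = 1), where all 14619 genes gave 217. With 1 female library in each genotype, sex and library cannot be told apart.

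**Figure D3:**
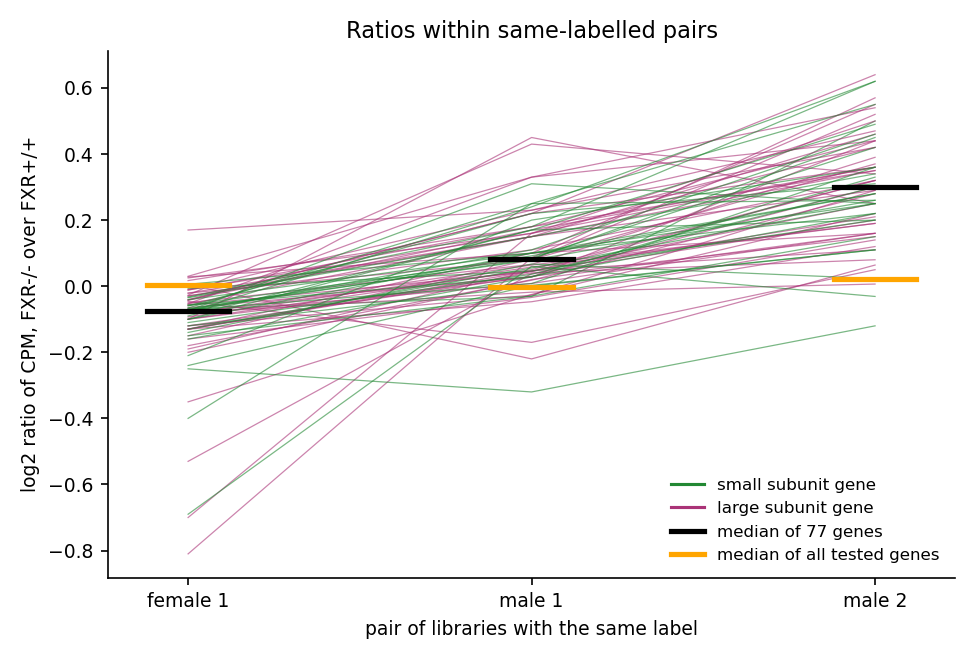
Each line joins the log2 ratios of 1 gene (FXR-/- over FXR+/+, CPM) in the pairs of libraries with the same label, green for the small and purple for the large subunit, with black bars at the median of the 77 genes and orange bars at the median of all tested genes. The black bar lies below 0 in the female pair and rises to 0.30 in male 2, while the orange bars stay near 0.

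The genes varied as a set from library to library. Relative to each gene's own mean over the 6 libraries, the median of the 77 was 0.01, 0.09 and -0.24 on the log2 scale in the FXR+/+ female 1, male 1 and male 2, and -0.09, 0.18 and 0.05 in the FXR-/- libraries. The FXR+/+ male 2 was the lowest library for 68 of the 77 genes, against 23.3% of all tested genes, and the FXR-/- male 1 was the highest for 59, against 24.6%. Without the FXR+/+ male 2, 31 of the 77 log2 fold changes were above 0 and their median was -0.027, so the sign of the median rested on that library. For the typical gene the highest library exceeded the lowest 1.36-fold.

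**Figure D4:**
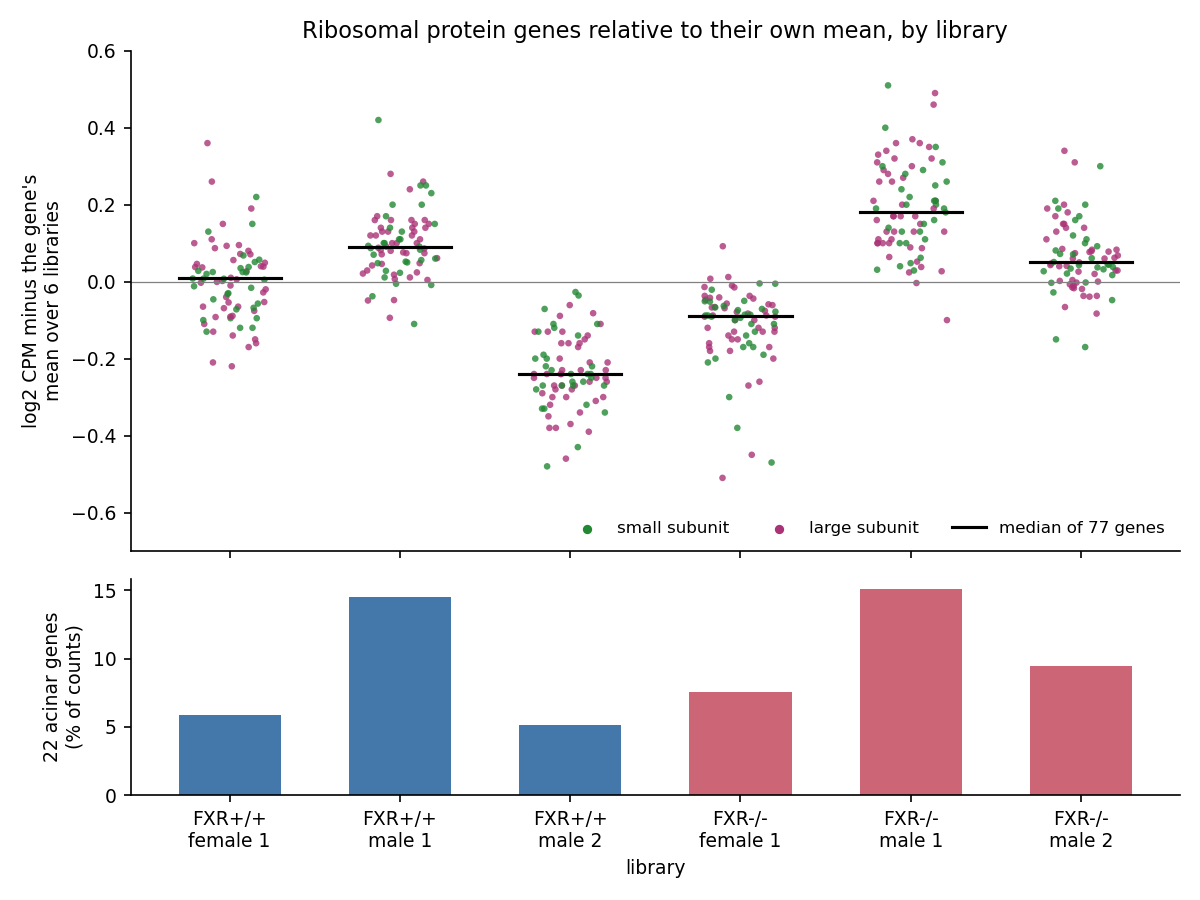
The upper panel shows, for each library, the log2 CPM of each of the 77 genes minus the gene's mean over the 6 libraries (green small subunit, purple large subunit, bar at the median), and the lower panel shows the share of counts on 22 acinar genes. The median runs from -0.24 in the FXR+/+ male 2, which has the smallest acinar share, to 0.18 in the FXR-/- male 1, which has the largest.

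The acinar content of the libraries followed this order except in the female pair, where the FXR-/- library had more acinar RNA and the lower median. The 22 acinar genes took 5.9%, 14.5% and 5.18% of counts in the FXR+/+ libraries and 7.56%, 15.1% and 9.43% in the FXR-/- libraries, and 21 of the 22 had at least 1 CPM in every library. With the acinar level as a term in the fit, the median log2 fold change of the 77 was -0.0017 and 38 were above 0. Of other markers, the summed level of 5 endothelial genes was 402 to 497 CPM in FXR+/+ and 506 to 810 CPM in FXR-/- islets, and of 8 macrophage genes 111 to 150 and 148 to 175 CPM. Over 5 ductal genes it was 25.6 to 63.1 CPM in FXR+/+ and 63.9 to 73.6 CPM in FXR-/- islets, and the 4 tested had a median log2 fold change of 0.76. Over 6 B and T cell genes it was 20.4 to 43.9 and 15.3 to 25.5 CPM, with a median of -0.78 over the 3 tested. The part of any of these cells in the result was not tested further.

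Scaling moved the values by a like amount. The 77 genes took 1.97%, 1.95% and 1.65% of all counts in the FXR+/+ libraries and 1.85%, 1.91% and 1.84% in the FXR-/- libraries, so that the mean share was 1.86% ± 0.177 and 1.87% ± 0.0382 (SD, n = 3 each). By this share the FXR-/- libraries lay within the range of the FXR+/+ libraries. With *Ins1*, *Ins2* and the acinar genes left out of the total, the share was 2.61%, 2.86% and 2.27% against 2.5%, 2.89% and 2.76%, with means of 2.58% ± 0.298 and 2.72% ± 0.196, and the FXR-/- male 1 was the highest of the 6. Of the exon counts the share was 0.267% ± 0.0445 and 0.3% ± 0.0378. Scaled by library size alone, 38 of the 77 log2 fold changes were above 0 with a median of -0.0020, while the median over all genes was -0.087.

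GC content moved with the fold change in these genes as in all genes. Across the 77 the rank correlation of log2 fold change with the GC content of the mRNA was 0.437, and across 13756 other genes it was 0.405, both given as descriptions because the genes share the same 6 libraries. All 16 ribosomal protein genes at 56% GC or above had a log2 fold change above 0, with a median of 0.17. Of 2999 other genes in that range, 2336 were above 0, with a median of 0.13. From 48% to 52% GC, 16 of 26 ribosomal protein genes were above 0 with a median of 0.043, where the median of 2896 other genes was -0.0092. Below 48% GC, 9 of 13 ribosomal protein genes were above 0 with a median of 0.090, where the median of 4831 other genes was -0.094. The medians of the ribosomal protein genes thus did not rise steadily with GC content. With an offset for GC content in each library, the median of the 77 was 0.067 and 63 were above 0. In that fit 0 had an unadjusted p under 0.05 by edgeR, where all genes gave 8.42%. Across the 77 the rank correlation with GC content was then -0.236.

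**Figure D5:**
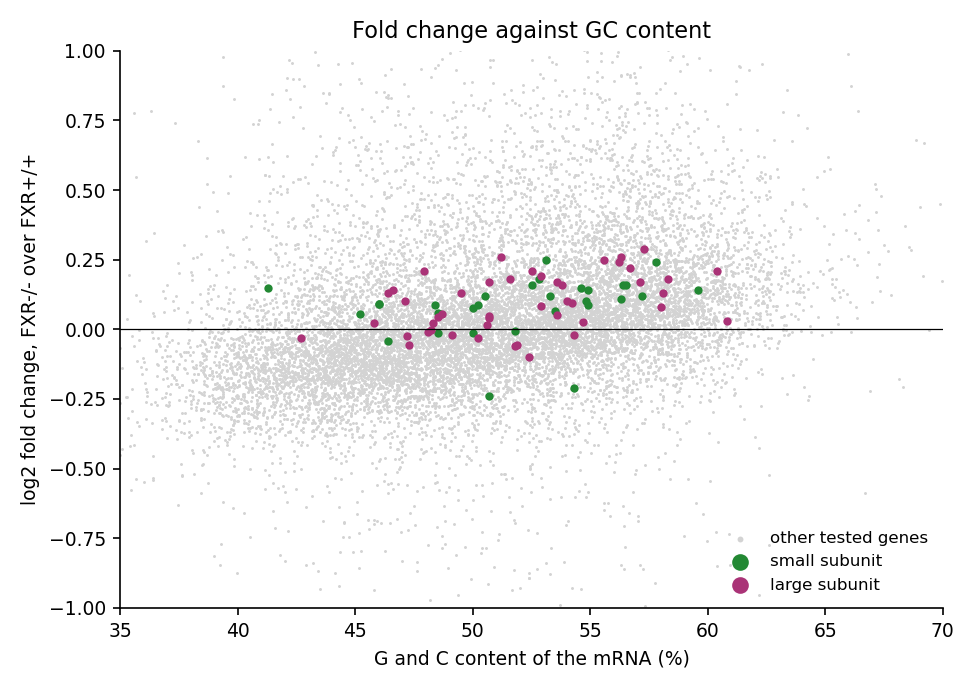
The log2 fold change of FXR-/- over FXR+/+ is plotted against the GC content of the mRNA for the 77 genes (green small, purple large subunit) and for other tested genes (grey, of which 203 of 13756 lie outside the axes). Both the grey cloud and the ribosomal protein genes sit higher toward the right.

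*Rpsa*, *Rps18* and *Rpl21* had a wide range among well-counted genes, a choice made after their values were seen. *Rps15*, with a range of 1.73-fold against 1.71-fold in *Rps18*, was not part of that choice. Nor was *Rpl34*, with a range of 1.93-fold at 378 to 496 counts per library. *Rpsa*, the laminin receptor precursor of the small subunit, was at 473, 554 and 334 CPM in FXR+/+ and 358, 660 and 488 CPM in FXR-/- islets, the widest range of the 77 at 1.97-fold, with the libraries in the same order as for the median of the 77. *Rpl21* was at 99.3, 95.2 and 70.9 CPM against 61.2, 106 and 100. In *Rps18* and *Rpl21* the FXR-/- female was the lowest of the 6, and in *Rpsa* it was next to the lowest. The shares of mRNA windows found in other genes were 86.7% for *Rps18*, 53.5% for *Rpsa* and 55.5% for *Rpl21*, the last at the median of the 77. Over the 77 the rank correlation of that share with the spread of a gene about the common pattern was 0.0675, given as a description.

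*Rps3a1*, a canonical small subunit gene whose symbol falls outside the rule, was measured alongside. It was at 573, 534 and 499 CPM against 508, 518 and 510, a log2 fold change of -0.063 ± 0.0993 with an edgeR adjusted p of 0.817. Among paralogs with restricted expression, *Rpl3l*, the muscle form of *Rpl3*, had 0 to 8 counts per library and *Rpl39l*, the testis form of *Rpl39*, had 0 to 2, and neither was tested. *Rps27l*, *Rpl22l1*, *Rpl36al*, *Rps4l* and *Rpl7l1* were all tested, at mean FXR+/+ levels of 56.3, 76.1, 183, 31.8 and 50.2 CPM. Their log2 fold changes were 0.06, -0.04, 0.09, 0.01 and -0.22. In the main edgeR fit 0 of these had an unadjusted p under 0.05, where all genes gave 10.3%. With the replicate name as a block, *Rpl7l1* had an unadjusted p of 0.0234 by edgeR, where 16.1% of all genes were under 0.05. In these counts *Rps27l* was thus above *Rps27*, its near copy, which had a mean FXR+/+ level of 3.28 CPM. Per kb of mRNA the 2 stood at 115 and 8.78 CPM. *Rps27* shared 98.6% of its windows with other genes, and that share was not computed for *Rps27l*. Which of the 2 mRNAs is more abundant is therefore not settled by these counts.

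Genes that serve the ribosome were compared by fixed lists. Of 42 tested ribosome biogenesis genes, 33 had a log2 fold change below 0 with a median of -0.16, and 11 were lower at an unadjusted p under 0.05 by edgeR, against 4.15% of all genes lower and 6.18% higher, while 0 were higher. None passed the adjusted threshold in edgeR, and DESeq2 called 1. The 3 genes shown next were picked for the lowest p-values of the list. *Gnl3*, or nucleostemin, was at 30.4, 33.3 and 33.4 CPM in FXR+/+ and 22.4, 23.7 and 25.5 CPM in FXR-/- islets. Its groups did not overlap, and 7.37% of all genes likewise lay wholly below. The log2 fold change of *Gnl3* was -0.44 ± 0.0833, with an edgeR adjusted p of 0.239. *Sbds*, which readies the large subunit for joining, was at 63.3, 57.5 and 59.1 CPM against 47.6, 49.2 and 48.1. *Wdr75* was at 29, 25.8 and 30.5 CPM against 21.5, 21 and 23.1. The count of 11 was 4 with the acinar term, 8 with the GC offset, 2 with exon counts, 15 with library size alone, 7 without the sex term, and with a library left out between 4 (without the FXR+/+ male 2) and 12. The median of the list was below 0 in each of these fits, from -0.26 to -0.12. Over all genes, 8.65% had an unadjusted p under 0.05 by edgeR with the acinar term, 62.5% of them higher. With library size alone it was 10.3%, of which 29% were higher. The median GC content of the list was 47.3%, lower than that of the ribosomal protein genes at 51.9%.

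Of 41 translation factors, several of which are also TOP mRNAs, 1 was lower (*Eif4a1*, log2 fold change -0.25 ± 0.0867) and 0 were higher at an unadjusted p under 0.05 by edgeR, and the median was -0.022. Of 17 RNA polymerase I genes 2 were lower and 0 higher, with a median of 0.011. Of 27 genes of the mTOR and Myc pathway 2 were higher and 2 lower, with a median of 0.047. The signs of these 3 medians were not stable, with values of 0.013 in males alone for translation factors, -0.11 with the GC offset for RNA polymerase I and -0.049 with library size alone for the pathway genes. *Tsc2*, which restrains mTORC1, was at 74.6, 85.6 and 77 CPM against 87.5, 103 and 92.1, and *Rps6kb1*, which encodes S6 kinase, at 36.9, 40.2 and 44.8 CPM against 34.8, 30 and 33.9. *Larp4* was at 83.9, 77.7 and 100 CPM against 74.6, 69.7 and 73.3. These 3 genes were picked for the lowest p-values of the list, and in each the groups did not overlap. Of all genes, 8.02% lay wholly above and 7.37% wholly below. The edgeR adjusted p-values of *Tsc2*, *Rps6kb1* and *Larp4* were 0.431, 0.45 and 0.474. With the GC offset, 0 of the pathway genes were lower and 1 was higher at an unadjusted p under 0.05 by edgeR, where all genes gave 8.42% in either direction.

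Among 9135 other genes with a mean of at least 10 CPM, those whose log2 CPM followed the mean of the 77 most closely over the 6 libraries were *Socs3*, *Rnf166*, *Stx8*, *Ppp1r15a* and *Atox1*, with Pearson correlations of 0.998, 0.991, 0.990, 0.989 and 0.989. The amplitudes differed widely. *Socs3* was at 40.5, 77 and 9.56 CPM in FXR+/+ and 21.5, 151 and 57.5 CPM in FXR-/- islets, and *Ppp1r15a* at 56.4, 93.9 and 25 against 34.4, 147 and 68.8, while *Stx8* stayed between 16.7 and 19.5 CPM. Both *Socs3* and *Ppp1r15a* are genes that cells induce within hours of stress or cytokine. With 6 libraries and so many genes compared, these correlations are a description of the order of the libraries.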

How the data were processed

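Islet RNA-seq libraries of mice, 3 per genotype (FXR+/+ and FXR-/-), were grouped by the sample labels and re-analysed. The authors deposited raw counts per gene and counts per exon of GRCm38, whole numbers without normalization. Their processing notes name HISAT, and its version, the counter and the read filters are not given in the sources used here. A deposited comparison made with DESeq holds the authors' mean signal, log2 fold change, p-value and q-value, and was not used.

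The test on gene counts was that of edgeR 4.0.16 in R 4.3.3 (filterByExpr by genotype with minimum count 10 and minimum total 15, TMM, glmQLFit and glmQLFTest on genotype beside sex, Benjamini-Hochberg over 14619 genes). The model left 3 residual degrees of freedom. Standard errors were taken from the F statistic. The script was tested on simulated data. DESeq2 1.42.0 was an alternative. CPM values are scaled by TMM, and lengths and GC content come from GENCODE vM21, for 94.6% of tested genes. Same-named libraries deviated together across genes (correlations of 0.361, 0.367 and 0.323, against 0.020 or below for differently named libraries), and the pairing comes from the labels. Each gene was centred on the mean of its genotype, which pushes the correlations of differently named libraries down when those of same-named ones are above 0. The female libraries also share sex, and the male 1 libraries had the largest acinar shares, 14.5% and 15.1%. What made same-named libraries alike was not tested. No 2 libraries of the same genotype agreed within sampling noise, and libraries of different genotypes were not compared in this way.

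The named genes are the 6 highest and 6 lowest levels per kb, the 6 largest log2 fold changes each way, the 10 lowest p-values, canonical genes and paralogs outside the rule, up to 3 genes per related list by p, and the 5 genes most like the mean of the members. Members and lists were chosen with earlier results of these data known. Alternatives were other models, scalings, filters, the exon counts, males alone, each library left out, and, chosen after seeing the data, the GC offset with and without the replicate block. Some values of single genes are not reported here.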

Additional observations from a re-analysis of the deposited data

How the results depend on the processing

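The number of ribosomal protein genes with an adjusted p under 0.05 was 0 under every alternative run. The number of genes called in all was 23 with the replicate block, 7 with the acinar term, 168 with DESeq2, 4 with exon counts and 9 with the replicate block and the GC offset, against 0 by the main model and 0 with any library left out. The number of ribosomal protein genes higher at an unadjusted p under 0.05, 0 by the main model, was 3 with the replicate block, 1 with DESeq2, 2 with exon counts, 3 in males alone, 2 with the replicate block and the GC offset, and 0 to 4 with a library left out. It was 4 without either female (*Rpl38*, *Rplp1*, *Rplp2* and *Rps29*), which leaves the males to set the contrast. Lower genes numbered 2 with exon counts and 0 to 1 with a library left out, the 1 being *Rps18* without the FXR-/- male 1. Over all genes the share at an unadjusted p under 0.05, in either direction, was 10.3% by the main model and 16.1% with the replicate block. It was 9.1% with DESeq2, 9.69% with exon counts, 8.28% in males alone and 12.4% with the replicate block and the GC offset. With a library left out it was 5.78% to 14.7%. The median log2 fold change of the 77 ran from -0.027 without the FXR+/+ male 2, and 0.028 without the FXR-/- male 1, to 0.18 without either female.

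Of 24 ribosomal protein genes named for their level, change or p, all kept their direction in 13 of the 20 alternatives. *Rps23* turned to -0.0049 with library size alone. With exon counts *Rps29* turned to -1, *Rpl34* to -0.47, *Rpl28* to -0.088, *Rpl30* to -0.081, *Rps14* to -0.075 and *Rplp2* to -0.060, values that rest on few counts. In males alone *Rpl26* turned to 0.35, *Rpl27* to 0.11, *Rpl14* to 0.084 and *Rps18* to 0.021. With a library left out, log2 fold changes of the genes that turned ran from -0.2 to 0.085 (*Rpl14*), -0.11 to 0.023 (*Rpl22*), -0.26 to 0.35 (*Rpl26*), -0.27 to 0.11 (*Rpl27*), -0.12 to 0.0062 (*Rpl3*), -0.019 to 0.18 (*Rps14*), -0.014 to 0.28 (*Rps16*) and -0.43 to 0.021 (*Rps18*). The cause was not tested. The 6 highest genes by level shared 2 with the order by CPM without length and 1 with exon counts per kb. *Rpl26* had 12 to 20 counts a library, and there were 3 libraries a genotype.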
